A study of Mus musculus with 6 samples.

Results

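The S100 genes encode small calcium-binding proteins with paired EF-hand loops, most of which form dimers, open on binding calcium and then dock onto target proteins such as annexins, myosin or p53. Several members also bind zinc or copper, and some are released from cells and act on receptors such as RAGE (Ager) and Tlr4. In tumour cells they are best known for links to motility, membrane repair and the plasminogen system. The 9 members described here are S100a1, S100a3, S100a4, S100a6, S100a8, S100a10, S100a11, S100a13 and S100a16, taken by gene symbol from a deposited table of 25407 genes. Each of the 9 symbols was found.

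RNA was sequenced from 3 treated and 3 control libraries of CT26.WT, a colon carcinoma line of the mouse. Treatment combined the particle Cu2O@AuMn@HA, named for its copper oxide, gold, manganese and HA parts, with NaHS, which releases hydrogen sulfide, and NIR (near-infrared light). The labels call the other group control and say no more of it, and the sources used here give no dose, time or light power. Because particle, NaHS and light were given together, their parts in any difference cannot be told apart, and in such bulk libraries fewer cells of a kind and less RNA per cell cannot be told apart either. The series title concerns photothermal treatment that induces ferroptosis and names no S100 gene. All libraries come from this cell line, and nothing says that libraries of a group came from separate cultures, so the p-values below reflect only how far these libraries scatter, and that scatter may be technical.

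Totals were 62328377 to 70323604 estimated counts in treated and 71409968 to 81821380 in control libraries. Of 7 epithelial markers tested, 4 rose (Krt8, Krt18 and Krt19 among them), Krt20 fell and Cdx2 did not pass. Krt18 averaged 163 FPKM in treated and 65.4 FPKM in control cells, whereas Epcam and Cdh1 averaged at most 0.0425 FPKM in either group. Of 6 mesenchymal markers tested, 2 rose and 4 fell (median log2 fold change -0.39): Vim (1295 FPKM in treated and 925 FPKM in control cells) and Fn1 (0.96 on the log2 scale) rose, while Col1a1 (-1.08) and Acta2 (-2.58) were among those that fell. Acta2 and Krt19 were at low levels in both groups. Acta2 averaged 0.159 FPKM in treated and 0.958 FPKM in control cells, with 23, 24 and 32 estimated counts in treated libraries. Krt19 averaged 0.694 FPKM in treated and 0.135 FPKM in control cells, with 18, 24 and 20 estimated counts in control libraries. Levels are FPKM, fragments scaled to transcript length and to the library's size, given as mean ± SD with n = 3. Changes are log2 fold changes (treated over control) with their standard error (SE) from edgeR's quasi-likelihood test on estimated counts, 2-sided, with Benjamini-Hochberg adjustment over 16212 genes tested. A gene is said to have risen or fallen where its adjusted p was under 0.05.

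Of the 8 members with a mean of at least 1000 estimated counts, 3 rose (S100a3, S100a6 and S100a13), 2 fell (S100a1 and S100a11) and 3 did not pass the test (S100a4, S100a10 and S100a16). The other member, S100a8, was near 0 and was tested only because its treated counts cleared the low-count filter, so its rise is given apart and supports nothing. Change was common in these cells: 46.6% of all genes tested passed, 23.0% rose and 23.5% fell. Among genes with a mean of at least 1000 estimated counts, 64.5% passed, against 5 of those 8 members. The share of these members that changed was therefore near that of all genes above the same count, which were not matched to them in level. The results lie in which members moved, in which direction and at which level. The members' median log2 fold change was 0.15 with S100a8 included. Without S100a8 it lies between S100a16 (-0.00) and S100a10 (0.15). The median was 0.06 over all genes tested and -0.13 over those with a mean of at least 1000 estimated counts. These differences were not tested. With a correction for transcript GC content, 8 of the 9 passed, S100a8 among them, 6 of these 8 being higher in treated cells. In that fit 49.1% of all genes tested passed and 25.6% rose.

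Promoters of 5 members are shown, chosen by direction of change or by a TATA box near the start. They are the start region shared by S100a1 and S100a13, which moved in opposite directions, and the promoters of S100a6 and S100a11, which also moved in opposite directions. Those of S100a4 and S100a8, the most and the least expressed of the members with a TATA box near the start, are shown too. The sequences are from RefSeq on build GRCm38.p6, each running from 250 bases before to 50 bases after the annotated start, and all 5 are on the plus strand. They lie at chr3:90514185-90514484 (S100a13), chr3:90612644-90612943 (S100a6), chr3:93520246-93520545 (S100a11), chr3:90603520-90603819 (S100a4) and chr3:90668821-90669120 (S100a8). Capitals mark, in S100a13, the bases from the S100a1 start to the S100a13 start, in S100a6 GAANNTTC and ACGTG, in S100a11 TGANTCA and GGGCGG, and in S100a4 and S100a8 TATAAA.
S100a13: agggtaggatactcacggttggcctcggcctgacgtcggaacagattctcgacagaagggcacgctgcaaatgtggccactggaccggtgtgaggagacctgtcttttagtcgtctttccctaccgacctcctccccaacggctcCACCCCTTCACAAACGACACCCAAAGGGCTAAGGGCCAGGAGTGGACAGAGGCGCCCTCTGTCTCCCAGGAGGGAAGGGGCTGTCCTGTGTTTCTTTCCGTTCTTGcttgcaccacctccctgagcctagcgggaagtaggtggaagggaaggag
S100a6: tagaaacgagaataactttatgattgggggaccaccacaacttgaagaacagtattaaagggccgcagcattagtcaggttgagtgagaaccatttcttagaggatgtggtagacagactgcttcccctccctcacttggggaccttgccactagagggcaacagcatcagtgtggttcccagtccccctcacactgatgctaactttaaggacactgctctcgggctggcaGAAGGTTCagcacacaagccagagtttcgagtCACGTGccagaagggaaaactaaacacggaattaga
S100a11: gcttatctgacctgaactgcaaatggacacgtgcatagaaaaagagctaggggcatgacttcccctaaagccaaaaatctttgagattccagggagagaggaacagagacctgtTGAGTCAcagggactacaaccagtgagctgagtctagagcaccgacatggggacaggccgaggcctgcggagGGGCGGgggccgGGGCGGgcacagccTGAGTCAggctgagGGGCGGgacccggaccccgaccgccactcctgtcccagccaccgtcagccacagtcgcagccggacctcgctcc
S100a4: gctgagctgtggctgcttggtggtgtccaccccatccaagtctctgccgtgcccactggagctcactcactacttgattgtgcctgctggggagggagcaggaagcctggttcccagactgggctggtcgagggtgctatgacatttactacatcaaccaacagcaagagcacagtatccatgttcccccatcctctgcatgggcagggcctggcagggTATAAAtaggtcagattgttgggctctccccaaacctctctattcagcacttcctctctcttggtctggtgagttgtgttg
S100a8: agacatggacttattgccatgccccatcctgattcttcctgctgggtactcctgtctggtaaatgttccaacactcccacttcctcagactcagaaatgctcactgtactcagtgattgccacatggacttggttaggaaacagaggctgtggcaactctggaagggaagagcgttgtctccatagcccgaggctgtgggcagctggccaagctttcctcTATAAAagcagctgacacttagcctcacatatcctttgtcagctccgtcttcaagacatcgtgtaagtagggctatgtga

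S100a1 and S100a13 are divergent neighbours. In RefSeq their starts lie 105 bases apart on opposite strands, so that their windows share 204 bases (chr3:90514281-90514484 on GRCm38.p6), with a GC content of 61.0% in the S100a1 window and 59.3% in the S100a13 window, against a mean of 53.8% over all promoter windows. Neither window holds TATAAA or GGGCGG. In the authors' file, whose genome build the sources used here do not give, the same genes start 43 bases apart, S100a1 at 90418341 to 90421699 on the minus strand of chromosome 3 and S100a13 at 90421742 to 90431888 on the plus strand.

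S100a1, which binds the calcium pump and release channel of muscle and is best known from heart, had the largest fall among the members. It measured 33.6, 42.0 and 43.3 FPKM in the treated libraries, against 98.4, 106 and 107 FPKM in the control libraries. Each treated library lay below each control library, with a wide gap. The means were 39.65 ± 5.27 FPKM in treated and 103.6 ± 4.56 FPKM in control cells (SD, n = 3 each), which made S100a1 2.67-fold lower after treatment (log2 fold change -1.42 ± 0.12 SE, edgeR adjusted p 1.2e-05). It passed with the same direction in each of 22 alternative settings, with log2 fold changes between -1.51 and -1.20.

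S100a13, which carries FGF1 out of cells by a route that bypasses the secretory pathway and that depends on copper, moved the other way. Its levels were 63.7, 65.3 and 74.3 FPKM in treated libraries, against 54.9, 50.5 and 51.1 FPKM in control libraries. The groups did not overlap, and the averages were 67.75 ± 5.73 FPKM in treated and 52.2 ± 2.36 FPKM in control cells (SD, n = 3 each). The rise was small (log2 fold change 0.34 ± 0.10 SE, edgeR adjusted p 0.0138) and did not pass without control library 3 (0.30, adjusted p 0.0791). Between the divergent pair, the ratio of S100a1 to S100a13 FPKM was 0.528, 0.644 and 0.583 in treated libraries, against 1.79, 2.09 and 2.09 in control libraries. S100a1 was thus the more abundant of the pair in control cells and the less abundant in treated cells.

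**Figure D1:**
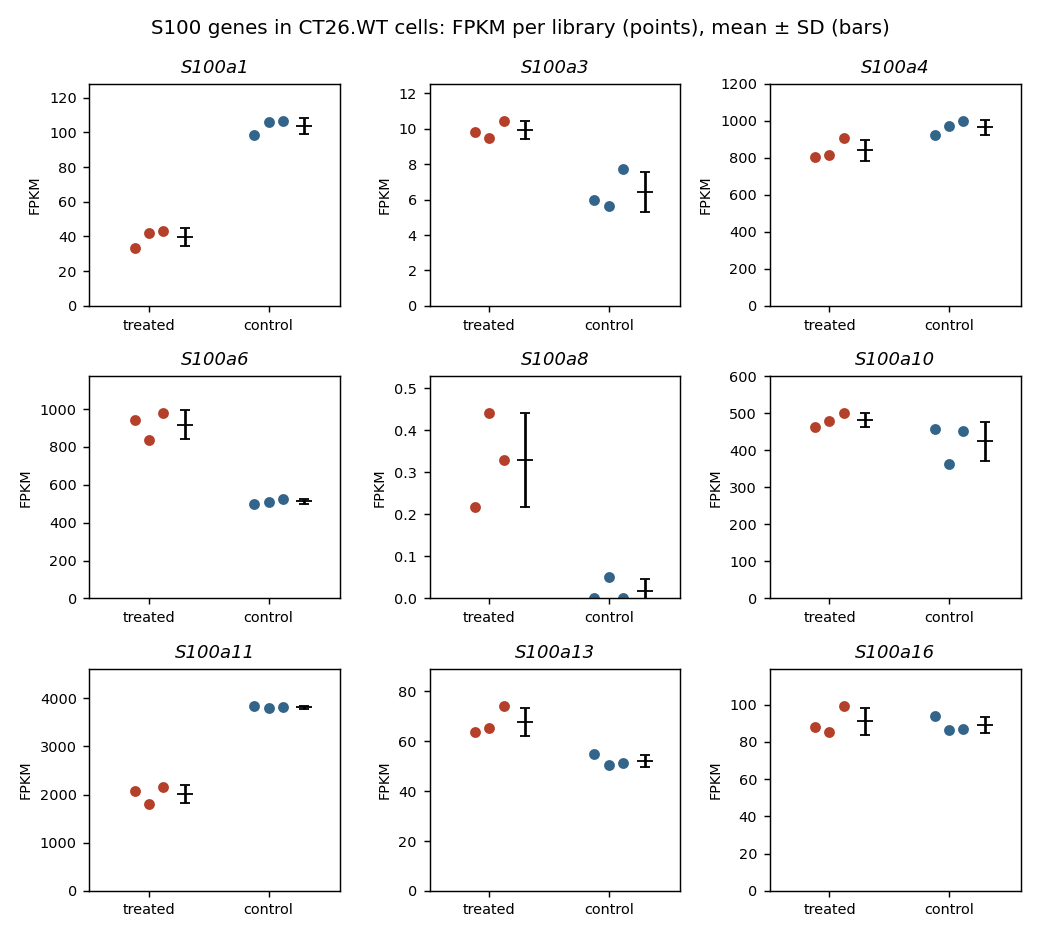
FPKM of the 9 S100 genes in each library (points), with the group mean and SD (bars, n = 3) beside them, treated left of control. The vertical axes start at 0 and differ in scale, and the lower arm of the S100a8 control bar is cut at 0. S100a1 and S100a11 lie lower in treated cells, S100a6 higher, and the S100a16 groups overlap.

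The annexin-linked members S100a11 and S100a10 stand apart from the rest on chromosome 3. S100a11, or calgizzarin, pairs with annexin A1, takes part in membrane repair and growth control, and was the most abundant member. It lies at 93427795 to 93433594 on the plus strand in the authors' file. The treated libraries held 2063, 1804 and 2160.3 FPKM, against 3845, 3789.8 and 3808 FPKM in control libraries. No treated library came near a control library, while the control libraries differed among themselves by little. Treated cells averaged 2009 ± 184 FPKM and control cells 3814 ± 28.2 FPKM (SD, n = 3 each), a 1.94-fold lower level after treatment (log2 fold change -0.96 ± 0.09 SE, edgeR adjusted p 2.12e-05). By FPKM it ranked 14, 26 and 15 among all genes in the treated libraries, against 8, 7 and 8 in the control libraries. It fell in all 22 alternatives (-1.04 to -0.83).

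S100a11's window matched TGANTCA, a form of the AP-1 site, at 136 and 38 bases before the start, and GGGCGG, the GC box, at 64, 52 and 24 bases before it. Searched on both strands, TGANTCA occurs in 7.81% and GGGCGG in 35.7% of 32851 RefSeq promoter windows of this length. Among the 8 members with a window, S100a16 also holds both and S100a3 also holds GGGCGG. These matches describe the sequence and are not measured sites.

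S100a10, also called p11, is the annexin A2 light chain. It no longer binds calcium, and at the cell surface it holds plasminogen and tissue plasminogen activator. Its gene starts 28.8 kb after the end of S100a11, at 93462387 to 93471950 in the authors' file. It measured 464, 479 and 501 FPKM in treated libraries, against 459, 364 and 452 FPKM in control libraries. The lowest treated library lay just above the highest control library, and control library 2 lay well below the other two. With means of 481 ± 18.6 FPKM in treated and 425 ± 53.0 FPKM in control cells (SD, n = 3 each), the difference did not pass (log2 fold change 0.15 ± 0.09 SE, edgeR adjusted p 0.22). It passed as higher after the GC correction (0.33, adjusted p 0.0141) and after that correction with a replicate block (0.34, adjusted p 0.0226), and in no other of the 22 alternatives.

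S100a6, or calcyclin, binds Cacybp and Sugt1, which link it to ubiquitin ligases and chaperones, and rises in many dividing and stressed cells. The file places it at 90520189 to 90531488 on the plus strand of chromosome 3. Its levels were 941, 835 and 978 FPKM in treated libraries, against 499.7, 512 and 526 FPKM in control libraries. The groups were far apart, and the averages of 918 ± 74.6 FPKM in treated and 512 ± 13.1 FPKM in control cells (SD, n = 3 each) gave a 1.75-fold higher level (log2 fold change 0.81 ± 0.09 SE, edgeR adjusted p 6.08e-05). The rise passed in all 22 alternatives (0.55 to 1.01). In the window shown above, GAANNTTC, a short form of the heat shock element, begins 18 bases before the start, and CACGTG, which holds the hypoxia-factor core ACGTG on both strands and is also a CANNTG E-box, begins 14 bases after it. GAANNTTC occurs in 7.86%, ACGTG in 19.6% and CANNTG in 72.3% of all windows. S100a11 is the other member with ACGTG, and no other member has GAANNTTC in its window.

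S100a4, or metastasin, loosens filaments of non-muscle myosin (Myh9) and is tied to tumour cell motility. It lies at 90511078 to 90513352, its annotated start 1069 bases after the end of S100a3. It measured 805, 813 and 907 FPKM in treated libraries, against 923, 971 and 1000.5 FPKM in control libraries. Every treated library was below every control library, though the highest treated and the lowest control library were close. The means were 841 ± 56.8 FPKM in treated and 965 ± 39.3 FPKM in control cells (SD, n = 3 each), and the difference missed the threshold (log2 fold change -0.23 ± 0.09 SE, edgeR adjusted p 0.0557). It passed as lower in 8 of 22 alternatives, among them DESeq2 and 4 of the 5 limma fits on FPKM, and also without treated library 3 or without control library 1. Across the alternatives it ran from -0.56 to -0.12.

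The abundant members therefore kept different ranks in the groups. In each treated library S100a6 was slightly above S100a4 (ratio of S100a4 to S100a6 FPKM 0.919 ± 0.0596), whereas in control cells S100a4 was the higher (1.88 ± 0.0313; SD, n = 3 each). The ratio of S100a6 to S100a11 was 0.456, 0.463 and 0.453 in treated libraries, against 0.130, 0.135 and 0.138 in control libraries. Within each group this ratio varied by little, and the groups lay far apart. S100a11 supplied 45.0% ± 1.32 of the members' summed FPKM in treated and 63.9% ± 0.723 in control cells. The share of S100a6 was 20.6% ± 0.458 in treated and 8.59% ± 0.197 in control cells, S100a4 took 18.9% ± 0.854 in treated and 16.2% ± 0.666 in control cells, and S100a10 took 10.8% ± 0.666 in treated and 7.11% ± 0.811 in control cells. A share depends on the sum, which was lower in treated cells. A higher share is therefore no rise: S100a4 had a higher share in treated cells though a lower FPKM, and S100a10 did not pass the test. The sum itself was 4468, 4133 and 4774 FPKM in treated libraries, against 5980, 5885 and 6038 FPKM in control libraries, or 1.10% ± 0.0833 of all FPKM in treated and 1.51% ± 0.0208 in control cells. The share of S100a1 was 0.893% ± 0.135 in treated and 1.74% ± 0.0794 in control cells.

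**Figure D2:**
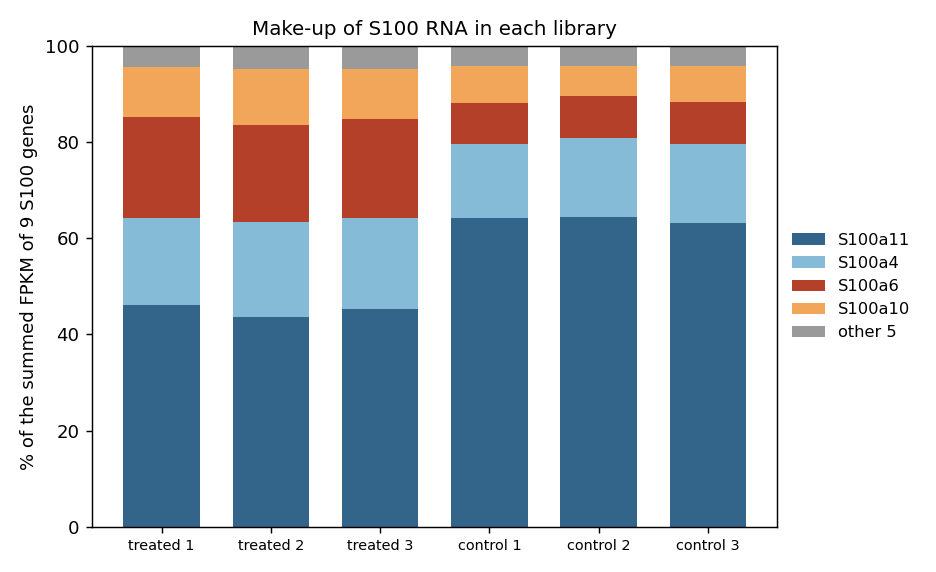
Share of the members' summed FPKM (vertical axis, %) held by S100a11, S100a4, S100a6, S100a10 and the other 5 members together in each library, treated libraries on the left. S100a11 takes 43.6% to 46.2% in treated and 63.1% to 64.4% in control libraries, and S100a6 takes 20.2% to 21.1% in treated and 8.36% to 8.71% in control libraries.

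The remaining members of the block were expressed at lower levels. S100a16, a broadly expressed member linked to fat cell formation in mice, lies at 90444561 to 90450458 and measured 88.2, 85.4 and 99.5 FPKM in treated libraries, against 94.2, 86.3 and 86.9 FPKM in control libraries. The groups overlapped, and its means were 91.0 ± 7.45 FPKM in treated and 89.1 ± 4.39 FPKM in control cells (SD, n = 3 each; log2 fold change -0.00 ± 0.09 SE, edgeR adjusted p 0.989). With the GC correction it passed as higher (0.20, adjusted p 0.0388). S100a16 transcripts had a GC content of 56.1%, the highest of the 9 members, and S100a8 the lowest, 44.2%.

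S100a3, a cysteine-rich zinc binder of the hair cuticle, had 9.84, 9.50 and 10.5 FPKM in treated libraries, against 5.97, 5.64 and 7.74 FPKM in control libraries. The groups did not overlap, and control library 3 was the highest of its group. S100a3 rose to 9.94 ± 0.486 FPKM in treated cells, against 6.45 ± 1.13 FPKM in control cells (SD, n = 3 each; log2 fold change 0.59 ± 0.13 SE, edgeR adjusted p 0.00446), and it passed in all 22 alternatives. The gene spans 90491966 to 90510009 in the file and overlaps S100a2 by 6873 bases on the same strand, so reads of the overlap could belong to either. S100a2 itself had 4, 10 and 10 estimated counts in treated and 7, 9 and 8 in control libraries, against at least 1277 for S100a3.

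S100a8 is a subunit of calprotectin, the zinc- and manganese-binding complex of neutrophils that also acts on Tlr4, and it was close to absent from both groups. The row held 11, 24 and 18 estimated counts in treated libraries, against 0, 4 and 0 in control libraries. In FPKM these are 0.218, 0.440 and 0.329 in treated and 0, 0.0514 and 0 in control libraries. The groups did not overlap. Since a fragment weighed about 4 estimated counts in this table, the totals correspond to 13 fragments in treated and 1 in control cells, a ratio of 14.8 per total count with an exact 95% interval of 2.22 to 628, which covers counting error only. The fit gave a log2 fold change of 3.71 ± 1.15 (SE, edgeR adjusted p 0.0237), which depends on the prior count and is no bound. Because the gene was tested only through its treated counts, which cleared the default low-count filter, this p is a description and no support for a rise.

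The S100a8 value was also fragile. It no longer passed without treated library 1, 2 or 3 (adjusted p 0.0588, 0.0968 and 0.0764), without control library 1 or 3 (0.0628 and 0.0721), with no filter on low counts (0.0777) and with a replicate block plus GC correction (0.0537), and 5 of the 22 alternatives did not test it. Of the genes with a mean under 20 estimated counts that were tested, 10.1% rose and 21 of 1550 fell. The calprotectin partner S100a9 was at 0 in each treated library and at 0, 0 and 3 estimated counts in control libraries. Since S100a8 also marks neutrophils and monocytes, a list of 15 myeloid markers, 9 with a row, is given beside it. Ptprc, which all leukocytes carry, averaged 0.000973 FPKM in treated and 0 in control cells, and the list summed to 58.4 to 67.0 FPKM in treated and 30.7 to 30.9 FPKM in control libraries, most of it Cd68 (61.0 ± 5.43 FPKM in treated and 27.8 ± 0.360 FPKM in control cells). Cd68, a lysosomal glycoprotein, was 1 of 4 tested markers of this list to rise (log2 fold change 1.10 ± 0.09 SE, adjusted p 1.27e-05), while Lyz2 did not pass (-0.06 ± 0.22 SE, adjusted p 0.846). The part of such cells in the S100a8 values was not tested.

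TATAAA begins 31 bases before the S100a4 start and 30 bases before the S100a8 start. One of the 4 RefSeq windows of S100a3 also has it, 52 bases before the start. The 8 members have 12 windows in all, some of them several windows of the same gene. TATAAA is in 3 of the 12, against 13.6% of all windows. The metal response core TGCNCNC is in 7 of the 12, against 51.0% of all windows, a share close to the background. TGACNNNGC, the antioxidant response core, is in 2 of the 12 (a window of S100a3 and a window of S100a16), against 12.4%.

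**Figure D3:**
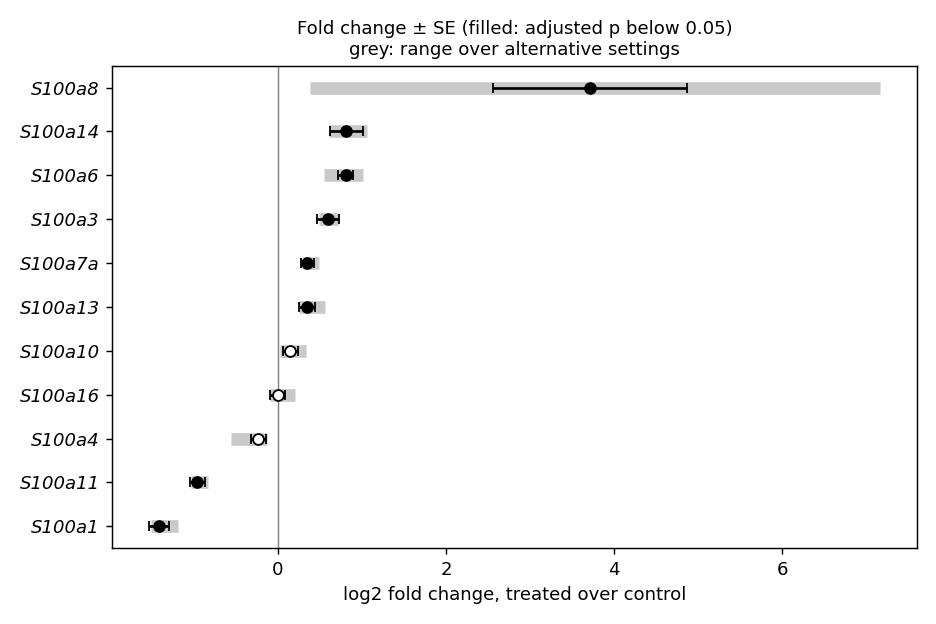
Log2 fold change, treated over control, of the 9 S100 members and of S100a14 and S100a7a (points, horizontal axis, with SE), filled where the adjusted p is below 0.05. Grey bands give the range over the alternative settings. The band of S100a8 runs from 0.38 to 7.16, and these ends are not on a like scale. The lower is from limma on log2(FPKM + 1) with every row above 0. The upper is from edgeR without control library 2, where the S100a8 counts left in control are 0. The called members keep their side of 0.

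Outside the 9 members, 9 further S100 symbols were listed and 6 had a row. Of these, S100a14 and S100a7a had enough counts to be tested, and both rose. S100a14, an epithelial member linked to invasion, averaged 5.05 ± 0.189 FPKM in treated and 2.80 ± 0.659 FPKM in control cells (SD, n = 3 each; log2 fold change 0.81 ± 0.20 SE, edgeR adjusted p 0.0075). S100a7a, the mouse relative of human psoriasin, averaged 99.2 ± 4.14 FPKM in treated and 76.0 ± 0.939 FPKM in control cells (0.35 ± 0.07 SE, adjusted p 0.00337), close to the level of S100a16. S100a5 had 9, 8 and 0 estimated counts in treated and 0 in each control library, and S100b had 0 in each treated library and 3, 0 and 0 in control libraries. S100a7l2, S100g and S100z had no row.

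In the authors' file 7 members, S100a1 to S100a8, lie within 159 kb, and S100a11 begins 2850 kb beyond that block. Along the block the direction differed from gene to gene: S100a1 fell, S100a13 and S100a14 rose, S100a16 did not pass, S100a3 rose, S100a4 did not pass, S100a6 and S100a7a rose, and S100a8 was near 0. Of 29 other genes starting within the block or 500000 bases to either side, 20 were tested, 3 rose and 6 fell, with a median log2 fold change of 0.01. The calls were 45% of those tested, against 46.6% over all genes tested. Nearest to S100a1, 0.852 kb away, the lncRNA Gm56783 had a log2 fold change of 1.40 ± 0.45 (SE, edgeR adjusted p 0.0269). That call was lost in 8 of the 14 alternatives that tested it, among them without treated library 1, 2 or 3 and without control library 1 or 3 (adjusted p up to 0.095). Chtop, an mRNA export factor that overlaps Gm56783 on the other strand, so that without strand their reads cannot be told apart, lies 1.54 kb from S100a1. It fell to 23.9 ± 1.75 FPKM in treated cells, against 34.2 ± 1.08 FPKM in control cells (log2 fold change -0.55 ± 0.07 SE, edgeR adjusted p 0.000205). Snapin, a SNARE-associated protein, did not pass (-0.21 ± 0.11 SE, adjusted p 0.148). Gm19739 inside the block, and Gm5284, Pglyrp4 and Gm35013 beyond S100a8, had too few counts to be tested, so no tested gene lies within that distance beyond S100a8.

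**Figure D4:**
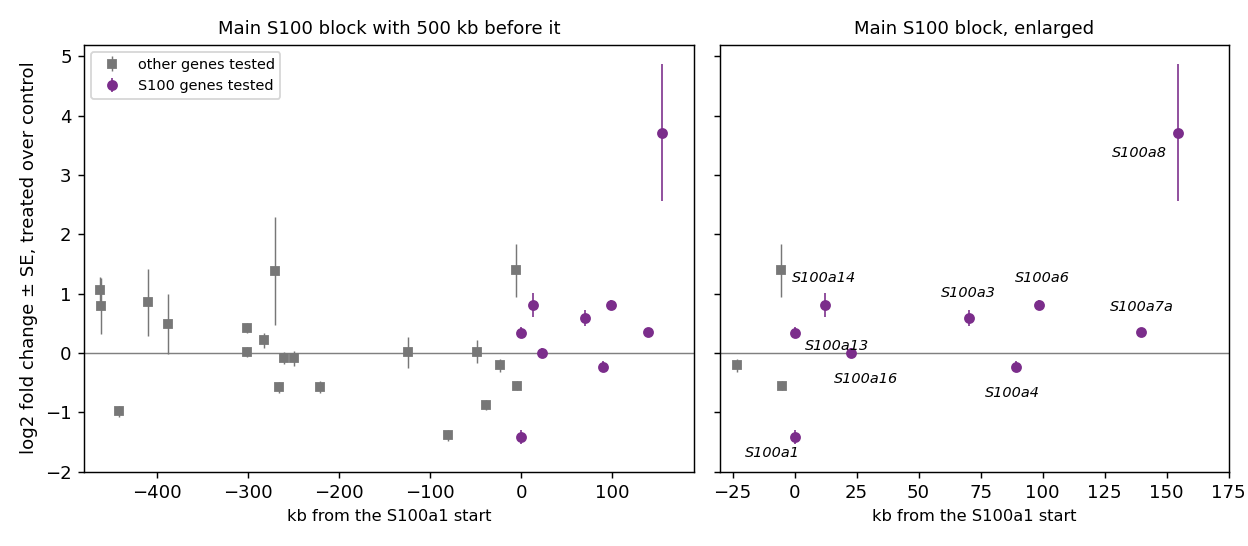
Log2 fold change with SE (vertical axis, treated over control) of tested genes against distance from the S100a1 start in kb (horizontal axis), with S100 genes as circles and other genes as squares, and the block enlarged on the right. S100a1 at -1.42 and S100a13 at 0.34 sit at almost the same position.

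Targets of the S100 proteins were followed as a list of 29 binding partners, of which 24 were tested, 8 rose and 7 fell (median log2 fold change 0.10). These calls were 62.5% of those tested, against 46.6% over all genes tested and 64.5% over genes averaging at least 1000 estimated counts. Among the rises, Fgf1 had 38, 58 and 34 estimated counts in treated libraries, against 14, 3 and 4 in control libraries. It was kept by the low-count filter only through its treated libraries. Anxa1, the partner of S100a11 and an anti-inflammatory membrane binder, rose to 66.4 ± 17.8 FPKM in treated cells, against 12.9 ± 2.97 FPKM in control cells (SD, n = 3 each; log2 fold change 2.33 ± 0.19 SE, edgeR adjusted p 1.25e-05), while S100a11 itself fell. Anxa2, the partner of S100a10, averaged 746 ± 17.5 FPKM in treated and 640 ± 18.2 FPKM in control cells and did not pass (0.19 ± 0.07 SE, adjusted p 0.0513), passing in 12 of 22 alternatives, without treated library 2 among them, and turning to -0.13 with quantile normalization. The ratio of S100a10 to Anxa2 FPKM was 0.645 ± 0.0253 in treated and 0.665 ± 0.0916 in control cells, a difference within the spread of the control libraries. Plat, the tissue plasminogen activator that binds S100a10, rose (10.9 ± 0.653 FPKM in treated and 5.57 ± 0.526 FPKM in control cells; 0.93 ± 0.10 SE, adjusted p 4.83e-05). Mdm2, the p53 ubiquitin ligase that several S100 proteins bind, rose (1.08 ± 0.10 SE, adjusted p 2.43e-05), and Ppp5c, a phosphatase that S100 proteins activate, fell (-0.89 ± 0.08 SE, adjusted p 1.34e-05).

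Of 9 listed receptors of extracellular S100 proteins, 7 were tested, 4 rose and 1 fell (median 0.36). The calls were 71.4% of those tested, against 46.6% over all genes tested. Bsg, or basigin, a receptor for S100a9 and an abundant surface protein, averaged 1085 ± 69.5 FPKM in treated and 607.5 ± 30.3 FPKM in control cells (log2 fold change 0.80 ± 0.09 SE, edgeR adjusted p 6.46e-05). Tlr4 rose (2.74 ± 0.905 FPKM in treated and 0.775 ± 0.165 FPKM in control cells; 1.79 ± 0.24 SE, adjusted p 0.000235), as did its co-receptor Cd14 (0.36 ± 0.09 SE, adjusted p 0.0074). Nptn, or neuroplastin, fell (-0.26 ± 0.07 SE, adjusted p 0.0142), a call lost in 4 of 22 alternatives, library totals alone among them (adjusted p up to 0.167). Ager, which encodes RAGE, averaged 0.158 ± 0.0501 FPKM in treated and 0.323 ± 0.223 FPKM in control cells and did not pass (-1.03 ± 0.57 SE, adjusted p 0.168), except without control library 3 (adjusted p 0.0456).

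**Figure D5:**
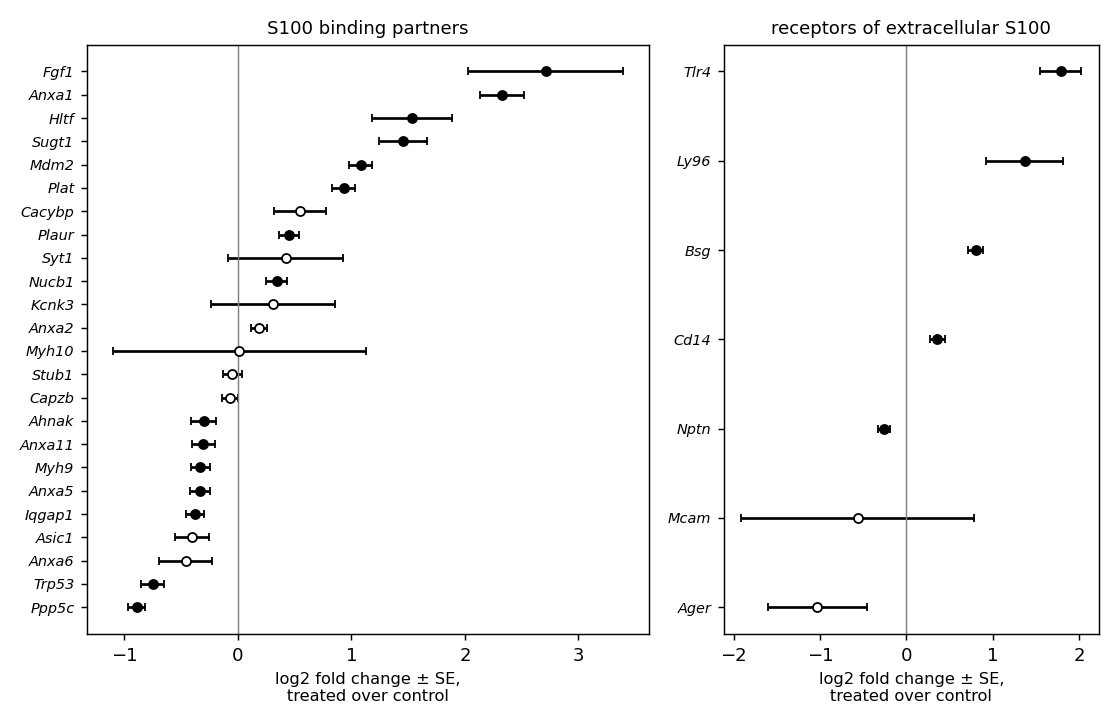
Log2 fold change with SE, treated over control (horizontal axes), of the tested S100 binding partners (left) and receptors of extracellular S100 proteins (right), filled where the adjusted p is below 0.05. Anxa1 lies at 2.33 and Ppp5c at -0.89 among the partners, and Tlr4 at 1.79 among the receptors.

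Other EF-hand calcium sensors gave 7 rises and 7 falls among 26 tested of 31 listed (median log2 fold change -0.05). The calls were 53.8% of those tested, against 46.6% over all genes tested. Calm3, which encodes calmodulin, fell (169 ± 10.6 FPKM in treated and 303 ± 13.2 FPKM in control cells; -0.88 ± 0.09 SE, edgeR adjusted p 3.3e-05), whereas Calm2, which encodes the same protein, did not pass (0.17 ± 0.13 SE, adjusted p 0.316). Efhd2, an actin-linked sensor, rose (0.61 ± 0.08 SE, adjusted p 0.000154), and the sensor Ncs1 and the calpain Capn2, a calcium-dependent protease, fell (-0.61 ± 0.09 and -0.47 ± 0.08 SE). Without treated library 1 or without control library 3, 9 sensors passed in place of 14. Of 19 listed calcium pumps and store channels, 16 were tested, 3 rose and 7 fell (median -0.22), so that 62.5% of those tested were called. The store pump Atp2a2, which S100a1 binds in muscle, fell to 20.3 ± 1.74 FPKM in treated cells, against 33.3 ± 1.001 FPKM in control cells (-0.76 ± 0.08 SE, adjusted p 4.69e-05). Its relative Atp2a3 (-1.64 ± 0.28 SE) and the release channel Itpr1 (-1.04 ± 0.13 SE) also fell, both from low levels. Atp2a3 averaged 0.210 ± 0.0747 FPKM in treated and 0.644 ± 0.0302 FPKM in control cells. Itpr1 averaged 0.445 ± 0.0443 FPKM in treated and 0.894 ± 0.0839 FPKM in control cells. The more abundant release channel Itpr3 (26.7 ± 1.09 FPKM in treated and 26.3 ± 1.42 FPKM in control cells) did not pass (-0.01 ± 0.08 SE, edgeR adjusted p 0.914). The mitochondrial exchanger Slc8b1 rose (0.73 ± 0.10 SE). The store chaperone Canx did not pass (-0.19 ± 0.11 SE, adjusted p 0.186) but did as lower without treated library 2 and with the GC correction.

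Over the 6 libraries, the profiles most like that of S100a1 among 12340 named protein-coding genes, by root mean square difference of centred log2 CPM, were Poc1a (0.0623), Fadd (0.0781) and Omd (0.0815). For S100a8 they were Galnt9 (0.316), Hcst (0.327) and Epm2a (0.346), a looser match on a profile of few counts. For S100a6 they were P4hb (0.0331), Pold4 (0.0351) and Bsg (0.0371), and for S100a11 Akt2 (0.0217), Banf1 (0.026) and Dgkz (0.032). The searches for S100a6 and S100a11 were added after their values were seen. With 6 libraries in 2 groups, likeness mostly reflects a similar size of change.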

How the data were processed

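The members and gene lists were chosen with earlier results of these data known. Per the file headers, the authors deposited FPKM values and counts per gene and library. The deposited counts behave as estimated counts: 4 occurred 4054 times, against a mean of 2539.5 for its neighbouring values, so a fragment weighs about 4. Cutadapt 1.9, HISAT2 2.2.1 and StringTie 2.1.6 appear, per the submitters' processing notes, beside edgeR and DESeq2. Genome build and strand use in counting: not given in the sources used here. Per the labels' protocols, mRNA was selected with oligo-dT beads and dUTP marked the second strand of the cDNA.

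edgeR 4.0.16 (R 4.3.3) was run on whole-number estimated counts with its default filter and TMM scaling, and Benjamini-Hochberg adjustment over 16212 of 25407 genes. The SE is the fold change over the root of the F statistic. Where a symbol had several rows, the row with the highest mean count was used. Simulated counts with known changes were used to test the edgeR fit. Alternatives were DESeq2 1.42.0, limma 3.58.1 on log2(FPKM + 1) and log2(FPKM + 0.1) with minimum mean FPKM of 1, 5 or none and with quantile normalization, other scalings and filters, counts divided by 4, protein-coding genes only, libraries left out, a replicate block, and a loess GC correction per library (span 0.4, GENCODE M21 transcripts, 97.2% of tested genes matched). The correction takes off the shape of the trend, and its uncentred form was added after the data were seen.

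Genes named are all S100 genes, in each list up to 4 past the threshold with the smallest p and the most abundant that did not pass, genes inside or nearest the block, and the 3 closest profiles of the members with the largest rise and fall. Epcam, Cdh1 and Ptprc were named beside this rule, after their values were seen, as markers near 0, Fgf1 for its few counts and Itpr3 for its level. Floors are 3 fragments, or 12 estimated counts. RefSeq promoter windows matched 8 of 9 members.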

Additional observations from a re-analysis of the deposited data

How the results depend on the processing

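Over 22 alternatives, S100a1, S100a3, S100a6 and S100a11 kept their direction and passed in each, and S100a13 in all but 1. The count of changed members, S100a8 included, was 6 and ran from 4 (without control library 3) to 8 (GC correction), and from 4 to 6 with single libraries left out. S100a16 turned from -0.00 to 0.20 with the GC correction, and Calm2 from 0.17 to -0.32 with the uncentred GC correction. The replicate numbers did not pair the samples (correlations of same-numbered libraries 0.040, -0.10 and 0.0065); with the replicate block 6 members passed, and 6275 genes in place of 7548. That block left 9 EF-hand sensors in place of 14, as did leaving out both libraries numbered 2 (9), with 9 to 15 when single libraries were left out. With limma at a mean FPKM of at least 5, 4363 genes, 1 other S100 gene, 3 receptors and 5 calcium pumps or channels passed. Quantile normalization gave 3 receptors, and limma on every row above 0 gave 5 pumps or channels. These fits test fewer or different genes, and other causes were not tested. Rises made up 49.5% of the calls in the main fit and 36.1% with the uncentred GC correction (2869 rose, 5071 fell). That uncentred form moved the median of all genes by -0.17 and left 7 members called, S100a4 among them as lower. Depth limits S100a8, with 13 fragments in treated and 1 in control libraries beside a floor of 3.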

Other observations

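The gap between the main S100 block and S100a11 holds, beside other genes such as Tdpoz8, the epidermal differentiation genes, which build the cornified layer of skin. Of 40 genes there in the authors' file, 13 were tested, of which 6 passed as higher by edgeR and 0 as lower. Over all genes tested 23.0% rose, and 10.1% rose among those with a mean under 20 estimated counts. The 6 that passed are named here and were singled out after their values were seen. In control libraries 4 of them were at 0 throughout and Sprr1a was near 0. All but Crct1 were thus tested only through the treated libraries, and the values of the 6 are a description. Sprr1a, a cornified envelope precursor, had 159, 140 and 130 estimated counts in treated libraries, against 0, 4 and 4 in control libraries. Crct1 had 234, 296 and 298 in treated libraries, against 115, 126 and 152 in control libraries (log2 fold change 1.17 ± 0.21 SE, edgeR adjusted p 0.00148). Lce1d (35, 40 and 63), Lce1e (23, 48 and 32), Lce1g (15, 23 and 26) and Tdpoz8 (64, 90 and 55) had these estimated counts in treated libraries and 0 in each control library. Apart from Crct1 and Sprr1a they reached at most 1.23 FPKM in any library, and the LCE genes are close copies of each other, so their reads may be split. More genes were above 0 in treated libraries (20621 to 21059) than in control libraries (18681 to 18970), and the part of that difference in these values was not tested.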
